A study of Danio rerio with 11 samples.

Results

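Homeobox transcription factors outside the Hox clusters were examined in ISNs, the intraspinal serotonergic neurons, which make serotonin and have their cell bodies in the spinal cord. The genes were chosen by symbol, from families that include lhx, isl1, isl2, pou, nkx, irx, meis, pbx, pax, dlx, msx, otx, phox2, prox, onecut, evx, en1, en2, dbx, gsx, vsx, tlx, barhl, mnx, pitx, arx and prrx, with lmx1 and hox left out. This rule took 157 of the 39714 gene IDs in the table, under 137 symbols, of which 20 were carried by 2 IDs. ISNs came from juvenile or adult Tg(tph2:GFP) zebrafish of both sexes, in which regulatory sequence of tph2, the neuronal enzyme of serotonin synthesis, drives green fluorescent protein. Every fish had a complete transection of the spinal cord, so neither group is uninjured. At 6 to 8 weeks post injury, fluorescent cells were collected from the segment of the injury (6 libraries) and, in the same fish, from distal segments (5 libraries), and each library is a pool of sorted cells. Values are FPKM, that is the fragments of a gene scaled to its length in kilobases and to 1000000 fragments mapped. Differences are given as injury minus distal on the scale of log2(FPKM + 1), on which changes of weakly expressed genes look smaller. As coordinates are not part of the table, each gene is named by its symbol and Ensembl ID. Many symbols in the reference of gene names have the mammalian form, so that NKX6-1 stands for zebrafish nkx6.1, and where 2 IDs share a symbol the last digits of the ID tell them apart.

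Homeobox proteins bind DNA through a homeodomain, and combinations of them set the identity of neurons along the axes of the spinal cord. In the ventral cord of vertebrates, progenitors near the floor plate make Nkx2.2, Nkx2.9 and Nkx6 proteins, and progenitors farther dorsally make Pax6, Irx3, Dbx, Pax3, Pax7, Msx and Gsx proteins. Postmitotic neurons then carry class-specific factors, such as Isl, Lhx3 and Mnx in motor neurons and Lhx1, En1, Evx and Pax2 in interneurons. Meis and Pbx proteins, of the three-amino-acid-loop-extension (TALE) class, are partners of Hox proteins, while POU class 2 and 3 factors bind octamer sequences and are found in many tissues and in the nervous system, respectively.

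Serotonergic markers were present throughout. All 7 IDs found for tph2, ddc, slc18a2, slc6a4a, fev, gata2a and gata3 were above 0 in the 11 libraries, and their levels added up to between 5959 and 10023 FPKM in injury libraries and between 3879 and 11303 FPKM in distal ones. Of the 8 markers listed, lmx1bb matched no symbol. The libraries held 14215980 to 19709661 fragments each, but the number of gene IDs above 0 ran from 5327 in injury 3 and 6953 in injury 2 to 21578 in injury 5. Housekeeping genes also went missing: 52% of 150 such IDs were listed at 0 in injury 3 and 28% in injury 2, against 5.33% to 21.3% in the other libraries. A value of 0 is therefore given here as listed at 0. Markers of other cells were uneven as well. The summed level of the ependymo-radial glia list was 239 FPKM in injury 5 and 317 FPKM in injury 6, against 0 to 65.0 FPKM in the other 9 libraries. The list of cerebrospinal fluid-contacting neurons, which lie beside the central canal, summed to 83.9 FPKM in injury 6, against 0 to 10.9 FPKM elsewhere. The list of myelinating oligodendrocytes divided the groups most, with 139 to 631 FPKM in the 5 distal libraries and 0 to 63.6 FPKM in injury 1 to 5, but 572 FPKM in injury 6. Of this list, mbpa alone was at 129 to 531 FPKM distally. The highest values of mpz and plp1b were at the injury (159 and 173 FPKM, against 80.1 and 75.6 FPKM distally). The genes olig2 and sox10 were above 0 in 2 distal libraries each, and plp1a in none. The part of such cells in the distal levels given below was not tested. In bulk samples, fewer cells of a type and less RNA per cell cannot be told apart.

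ISNs of both segments shared a small set of homeobox genes, and most of the others were seen in few libraries. Of the 157 IDs, 102 were above 0 in at least 1 library and 55 (35%) were listed at 0 in all of them, against 25.7% of all IDs in the table. A level of 1 FPKM was reached in some library by 69, a mean of 1 FPKM by 23 and a mean of 10 FPKM by 7. Only NKX6-1, MEIS1 and POU2F1 were above 0 in all 11 libraries, 2.94% of the 102, where 7.75% of all 29512 genes seen in any library were. At least 9 libraries held 12 of the homeobox genes (11.8%, against 24.6% of all genes), and these 12 carried 69.0% to 99.3% of the homeobox FPKM in a library. At the other end, 46 were above 0 in a single library. The set of 12 consists of NKX6-1, 6 TALE genes (MEIS1, meis3, meis2b, pbx4, pbx1a and pbx2) and 5 POU genes (pou2f2b, POU2F1, POU2F2, pou3f3b and POU6F1). It was formed after the values were seen. Of its 13 zeros, 8 lay in injury 3 and 3 in injury 2. With those libraries left out, 10 of the 12 were above 0 in all 9 libraries that remained. No gene outside the set could have been, as the set holds every homeobox gene above 0 in at least 9 libraries.

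**Figure D1:**
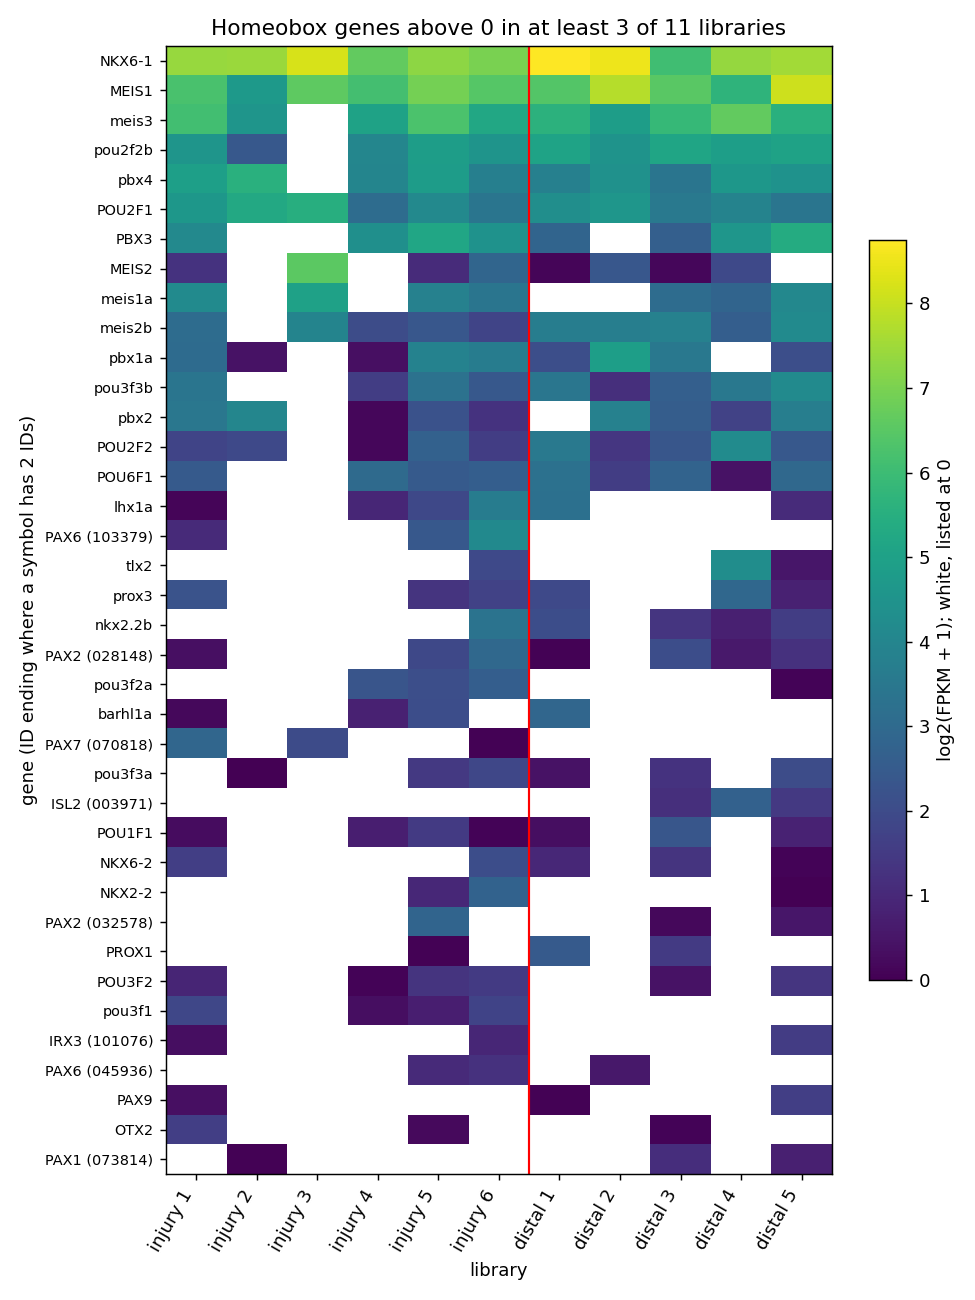
Levels of 38 homeobox genes above 0 in at least 3 of the 11 libraries. Each row is a gene ID, ordered by mean level, each column is a library, colour gives log2(FPKM + 1), white marks a gene listed at 0, and the red line parts the 6 injury libraries from the 5 distal ones; the upper rows are filled in nearly every column, while injury 2 and injury 3 are mostly white below them.

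The number of homeobox genes in a library went with the number of all genes in it. It was 35, 14, 7, 26, 52 and 48 in injury 1 to 6 and 32, 16, 30, 22 and 39 in distal 1 to 5. These counts correspond to 1.31 to 2.41 homeobox genes per 1000 genes seen at the injury and 1.54 to 2.33 distally, so the groups overlapped. Injury 5, with the most genes, also held the most homeobox genes seen nowhere else, 12, and injury 6 held 8. For genes seen in at least 3 libraries, detection was seldom a matter of single fragments. Genes seen in fewer libraries are not covered by these counts. Among the 39 homeobox genes above 0 in at least 3 libraries, 217 of the 241 values above 0 (90.0%) stood for 10 or more fragments, with a median of 202, and 8 stood for 1 fragment. As the cDNA was amplified from little RNA, fragments are not separate molecules.

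**Figure D2:**
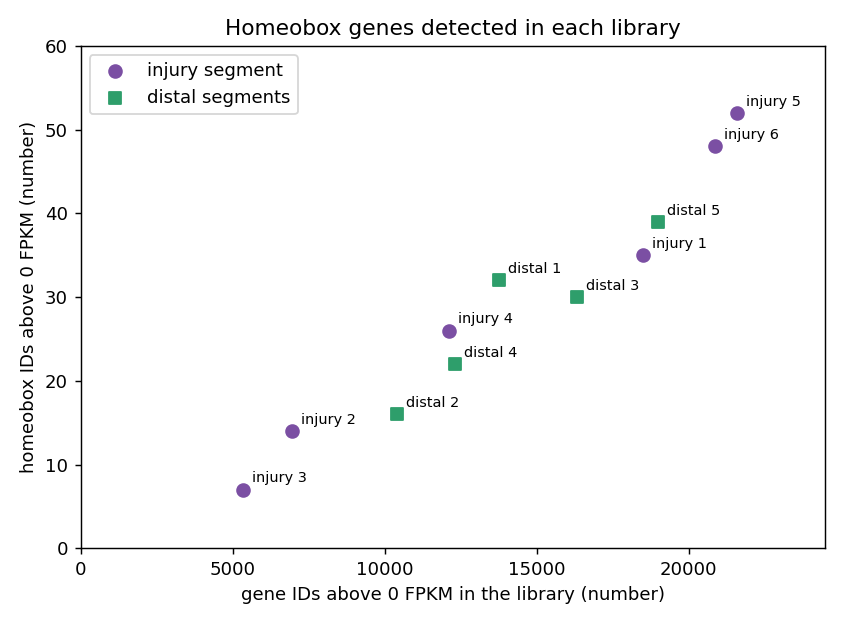
Homeobox IDs above 0 FPKM in each library (vertical axis, number) against all gene IDs above 0 FPKM in it (horizontal axis, number). Circles are injury segment libraries and squares distal segments libraries; injury 3, with 5327 genes, held 7 homeobox IDs and injury 5, with 21578 genes, held 52.

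NKX6-1 (ENSDARG00000022569), a repressor of ventral progenitors that persists in some ventral neurons, had the highest mean level of the 157 homeobox IDs examined. These leave out hox and lmx1, and the ranks and shares below are among them. Its level was 169.7, 172, 294, 98.8, 154 and 127 FPKM in injury 1 to 6 and 429, 365, 66.4, 164 and 186 FPKM in distal 1 to 5. Every library was high, including injury 2 and injury 3 with their few genes, and the lowest and the highest value were both distal, so the groups overlapped. The means were 169 ± 67.2 FPKM at the injury (SD, n = 6) and 242 ± 150.2 FPKM distally (SD, n = 5). NKX6-1 stood above 98.4% of all genes seen in any library by mean level, was the highest homeobox gene in 9 of 11 libraries, and made up 19.3% to 59.0% of the homeobox FPKM. The difference was -0.32 with a 95% interval of -1.51 to 0.87 (limma p = 0.585, adjusted p = 0.893, exact permutation p = 0.524), which does not show that the levels were alike.

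The other Nkx genes of the ventral cord were low or absent beside it. NKX6-2 (ENSDARG00000104735), a paralog with a similar ventral domain, was listed at 2.06 FPKM in injury 1, 3.21 FPKM in injury 6, 0.966 FPKM in distal 1, 1.5 FPKM in distal 3 and 0.0587 FPKM in distal 5, and at 0 in the other libraries. NKX6-3 was above 0 in injury 5 and injury 6, at 1.51 and 1.23 FPKM. The genes of the Nkx2.2 kind, which mark the progenitors next to the floor plate, were seen in a minority of libraries. NKX2-2 (ENSDARG00000053298) was at 0.968 FPKM in injury 5, 5.72 FPKM in injury 6 and 0.0208 FPKM in distal 5, the last from 1 fragment. Its paralog nkx2.2b (ENSDARG00000101549) was at 9.03 FPKM in injury 6, at 3.17, 1.53, 0.706 and 1.99 FPKM in distal 1, 3, 4 and 5, and at 0 in the other 6 libraries. Thus nkx2.2b was seen in 4 of 5 distal and 1 of 6 injury libraries, but its highest value was an injury one, and the difference of -0.60 (95% interval -2.10 to 0.91) had an adjusted limma p of 0.844 and an exact permutation p of 0.426. Injury 6, highest for NKX2-2, NKX6-2 and nkx2.2b, was also the library with the highest ependymo-radial glia and cerebrospinal fluid-contacting neuron marker sums given above. The 5 libraries with nkx2.2b also had high oligodendrocyte sums, of 631, 414, 253 and 139 FPKM in distal 1, 3, 4 and 5 and 572 FPKM in injury 6, while distal 2 had 535 FPKM with nkx2.2b at 0. The part of any of these cells in the Nkx values was not tested. The gene nkx2.9 was listed at 0 in all 11 libraries.

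Farther from the floor plate, progenitor genes were sparse. In the group of ventral and intermediate progenitor genes 13 of 14 IDs were above 0 somewhere, 5 at the injury alone, 2 distally alone and 6 in both, but NKX6-1 alone reached 9 libraries. Beside such counts, here and in the groups below, 41.2% of the homeobox genes seen were above 0 at the injury alone and 19.6% distally alone. Of all genes seen, 18.2% and 8.15% were. PAX6 (ENSDARG00000103379), which patterns intermediate progenitors and is also made by radial glia, was at 1.07 FPKM in injury 1, 4.26 FPKM in injury 5 and 16.8 FPKM in injury 6, from 26, 79 and 371 fragments, and the table gives 0 for injury 2, 3 and 4 and every distal library. Its 3 values had the same order as the ependymo-radial glia sums of these libraries (10.8, 239 and 317 FPKM). However, glial sums above that of injury 1 also occurred with this ID at 0. They were 65.0 FPKM in injury 2 and 48.7, 17.8 and 46.7 FPKM in distal 2, 3 and 5. The part of such cells was not tested. The difference of ENSDARG00000103379 was 1.27 (95% interval -0.17 to 2.70), with an adjusted limma p of 0.838. Its exact permutation p of 0.182 was the smallest that these values allow in the observed direction. For this ID, a count of 0 in the distal libraries allows up to 3 fragments, or 0.118 to 0.156 FPKM, as far as counting error goes. A second ID for PAX6 (ENSDARG00000045936) was at 1.04 FPKM in injury 5, 1.35 FPKM in injury 6 and 0.496 FPKM in distal 2.

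Of the TALE genes, meis and pbx were seen broadly and irx was not. All 11 meis and pbx IDs were above 0 somewhere, 9 of them in both groups and 6 in at least 9 libraries. Of 11 irx IDs, which encode Iroquois factors of neural patterning, 10 were above 0, but 8 of these in a single library, and none exceeded 4.58 FPKM. MEIS1 (ENSDARG00000012078) was the second gene of the set, with 75.1, 24.8, 95.6, 69.2, 121 and 86.7 FPKM in injury 1 to 6 and 84.6, 220.4, 90.5, 50.2 and 272 FPKM in distal 1 to 5. It was the highest homeobox gene in the 2 libraries where NKX6-1 was not, distal 3 and distal 5. Distal 2 and distal 5 stood above every injury library and distal 4 below 5 of the 6. The means were 78.8 ± 32.2 FPKM (SD, n = 6) at the injury and 144 ± 96.7 FPKM (SD, n = 5) distally, and the difference of -0.72 (95% interval -2.10 to 0.65) had an adjusted limma p of 0.838 and an exact permutation p of 0.219.

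The remaining meis genes differed in how steadily they appeared. The level of meis3 (ENSDARG00000002795) was 67.7, 22.4, 0, 32.2, 76.0 and 36.8 FPKM in injury 1 to 6 and 48.8, 28.0, 57.1, 98.5 and 46.2 FPKM in distal 1 to 5, with injury 3 as the one library at 0. The level of meis2b (ENSDARG00000077840) was 7.44, 0, 14.6, 3.13, 4.14 and 2.47 FPKM in injury 1 to 6 and 12.1, 12.4, 13.5, 5.07 and 17.1 FPKM in distal 1 to 5. Distal values of meis2b lay mostly above the injury ones, with injury 3 and distal 4 crossing over. Its exact permutation p of 0.0519 was the lowest of all homeobox genes tested, at a difference of -1.41 (95% interval -3.27 to 0.45, adjusted limma p = 0.838). The gene meis1a (ENSDARG00000002937) was at 17.1, 0, 31.0, 0, 13.3 and 9.6 FPKM in injury 1 to 6 and at 0, 0, 7.62, 6.08 and 15.9 FPKM in distal 1 to 5, so zeros occurred in both groups. MEIS2 (ENSDARG00000098240) was at 1.46, 0, 91.6, 0, 1.09 and 6.25 FPKM in injury 1 to 6 and 0.0952, 4.2, 0.101, 2.77 and 0 FPKM in distal 1 to 5. One library, injury 3, thus held a level of MEIS2 over any other, from 2417 fragments, in a library where 8 of the 12 broadly seen genes were at 0.

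Among pbx genes, pbx4 (ENSDARG00000052150), an early Hox partner in zebrafish, was at 29.7, 46.4, 0, 14.8, 27.9 and 12.7 FPKM in injury 1 to 6 and 13.2, 20.5, 9.67, 23.8 and 20.9 FPKM in distal 1 to 5. Injury libraries were both the highest and the lowest. PBX3 (ENSDARG00000013615) was at 16.5, 0, 0, 19.4, 34.9 and 21.2 FPKM in injury 1 to 6 and 5.99, 0, 5.25, 23.2 and 41.1 FPKM in distal 1 to 5, and reached 8 libraries. The differences were -0.30 (95% interval -2.25 to 1.65) for pbx4 and -0.07 (95% interval -2.40 to 2.27) for PBX3, with exact permutation p of 0.896 and 0.968, and the sign of either turned when injury 3 was left out (0.47 and 0.54). The genes pbx1a and pbx2, in 9 libraries each, ranged from 0 to 28.9 FPKM and from 0 to 15.2 FPKM.

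The POU genes of classes 2, 3 and 6 were the other broad group: all 11 IDs were above 0 somewhere, 8 in both groups, 2 at the injury alone, 1 distally alone, and 5 in at least 9 libraries. The class 2 gene pou2f2b (ENSDARG00000019658) was at 22.8, 4.37, 0, 15.1, 28.3 and 22 FPKM in injury 1 to 6 and 32.3, 21.8, 34.3, 28.8 and 32.2 FPKM in distal 1 to 5. Distal 1, 3, 4 and 5 were above all injury libraries, and distal 2 lay within the injury range. The difference was -1.53 (95% interval -3.42 to 0.36, adjusted limma p = 0.838, exact permutation p = 0.0541), and without injury 2 and injury 3 it was -0.44. POU2F1 (ENSDARG00000007996), an octamer factor found in most tissues, was at 23.9, 37.9, 44.1, 7.5, 16.4 and 9.52 FPKM in injury 1 to 6 and 18.9, 23.1, 10.7, 14 and 9.44 FPKM in distal 1 to 5. The means were 23.2 ± 15.1 FPKM (SD, n = 6) and 15.2 ± 5.73 FPKM (SD, n = 5), with the highest values in injury 2 and injury 3, and the difference of 0.39 (95% interval -1.30 to 2.08, exact permutation p = 0.437) turned to -0.14 without those libraries. The class 3 gene pou3f3b, of the developing nervous system, was at 9.6, 0, 0, 1.98, 8.81 and 4.32 FPKM in injury 1 to 6 and 9.82, 1.28, 5.3, 10.4 and 17.4 FPKM in distal 1 to 5, so the groups overlapped. POU2F2 and POU6F1 ranged from 0 to 17.7 FPKM and from 0 to 8.61 FPKM. Of the class 4 genes, which mark sensory and some other neurons, only POU4F1 and POU4F2 were above 0, each in injury 5 alone, at 3.6 and 0.301 FPKM.

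**Figure D3:**
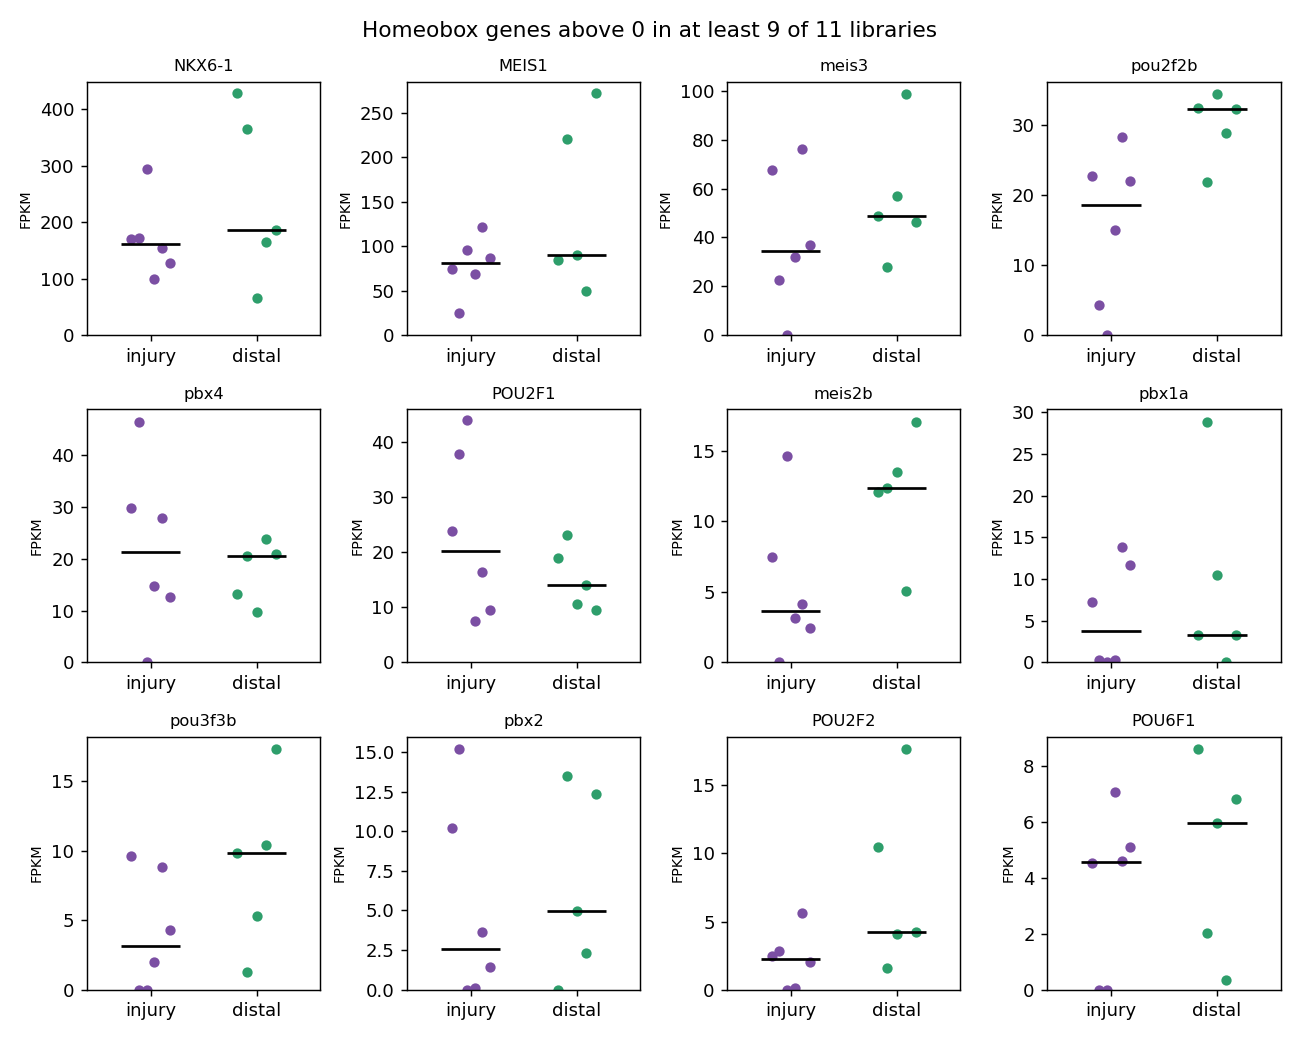
FPKM of the 12 homeobox genes above 0 in at least 9 of the 11 libraries, each with its own axis that starts at 0. Points are single libraries, 6 injury and 5 distal, and bars are medians; the groups overlap for every gene, and pou2f2b and meis2b come nearest to parting.

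Genes seen on one side of the comparison were common, as they were among all genes. Of the 102 homeobox genes, 42 (41.2%) were above 0 in injury libraries only and 20 (19.6%) in distal libraries only, against 18.2% and 8.15% of all 29512 genes. Most rested on a single library: 29 of the 42 and 17 of the 20. Of the 42, 31 were above 0 in injury 5 or injury 6, the libraries with the most genes, and 15 stayed under 1 FPKM, as did 15 of the 20. Where a level of 1 FPKM was asked for, 33 of 69 (47.8%) were seen at the injury only and 10 (14.5%) distally only, against 20.6% and 10.3% of all 23636 genes that reached it. Genes seen on one side in 3 or more libraries were few. At least 3 injury and no distal libraries held 4 (3.92%, against 2.13% of all genes), and at least 3 distal and no injury libraries held 1 (0.98%, against 0.312%). None had groups that did not overlap, a rule met by 0.207% of all genes.

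The genes on the injury side included PAX6 (given above), PAX7 and pou3f1. PAX7 (ENSDARG00000070818), a factor of dorsal progenitors and of muscle stem cells, was at 6.36 FPKM in injury 1, 3.02 FPKM in injury 3 and 0.0368 FPKM in injury 6, the last from 1 fragment, and was listed at 0 elsewhere. A count of 0 allows up to 3 fragments, or 0.0961 to 0.127 FPKM, in the distal libraries, and this covers counting error only. The difference of 0.82 (95% interval -0.24 to 1.89) had an adjusted limma p of 0.838 and an exact permutation p of 0.303. That is the smallest that these values allow in the observed direction. A second ID for PAX7 (ENSDARG00000100398) went the other way, above 0 only in distal 2, at 0.349 FPKM. The skeletal muscle list, which includes both PAX7 IDs, was highest in injury 1, at 11 FPKM. Of this, PAX7 itself made up 6.36 FPKM and actc1b 4.65 FPKM. In injury 3, PAX7 was the whole sum of 3.02 FPKM, and the distal maximum of 0.349 FPKM was the second ID. Injury 5 summed to 4.8 FPKM with PAX7 at 0. The part of muscle cells in the PAX7 values was not tested. The class 3 gene pou3f1 (ENSDARG00000009823) was the most regular of them, at 2.6, 0.267, 0.662 and 2.38 FPKM in injury 1, 4, 5 and 6, from 139, 13, 27 and 116 fragments. It was thus listed at 0 in injury 2 and injury 3, which lacked many genes, and in all 5 distal libraries. Its difference of 0.78 (95% interval -0.13 to 1.69) had an adjusted limma p of 0.838 and an exact permutation p of 0.106. Again this is the smallest allowed in the observed direction. A related gene singled out after its values were seen, pou3f2a, was at 3.96, 3.28 and 5.13 FPKM in injury 4, 5 and 6, and at 0.0617 FPKM in distal 5 alone among the distal libraries. Its difference of 1.15 (95% interval -0.11 to 2.42) had an adjusted limma p of 0.838 and an exact permutation p of 0.182. Another pou3f2 ID, POU3F2 (ENSDARG00000076262), was seen in both groups. It was at 0.884, 0.072, 1.5 and 1.8 FPKM in injury 1, 4, 5 and 6, and at 0.349 and 1.56 FPKM in distal 3 and 5. The POU3F2 difference was 0.28 (95% interval -0.72 to 1.28, adjusted limma p = 0.889, exact permutation p = 0.481).

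The gene on the distal side was ISL2 (ENSDARG00000003971), a LIM-homeodomain factor of motor neurons and some sensory neurons. Its level was 1.26 FPKM in distal 3, 5.59 FPKM in distal 4 and 1.76 FPKM in distal 5, from 39, 139 and 53 fragments, and it was listed at 0 in distal 1, distal 2 and all 6 injury libraries. Zero fragments there allow at most 0.0903 to 0.125 FPKM, as far as counting error goes. The difference was -1.07 (95% interval -2.09 to -0.05), and ISL2 was the one homeobox gene of the 68 tested with an unadjusted limma p under 0.05 (p = 0.0402), but its adjusted p was 0.838 and its exact permutation p of 0.0606 was the smallest these values can give. Without injury 1 the unadjusted limma p was 0.0707, without distal 4 it was 0.0782, and leaving out any single injury library, or distal 5, also took it over 0.05. A second ID under the same symbol (ENSDARG00000053499) was above 0 only in distal 5, at 0.0771 FPKM, and which of the pair is isl2a is not told by the reference used here.

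Most other motor neuron homeobox genes were absent where ISL2 was seen. Of 9 IDs for isl, lhx3, lhx4 and mnx genes, ISL1, isl1b, LHX3, mnx2a and mnx2b were listed at 0 in all libraries. MNX1 was seen in injury 1 alone (3.5 FPKM) and LHX4 in injury 5 alone (0.0803 FPKM), so neither shared a library with ISL2. Among motor neuron markers, chata, the acetylcholine-synthesizing enzyme, reached 0.0507 FPKM distally and 3.2 FPKM at the injury, whereas one ID of slc5a7a, the choline transporter, was above 0 in all 11 libraries at 5.79 to 148 FPKM. Its second ID was seen distally only, at up to 3.95 FPKM. At the injury, slc18a3a, nefma and chodl reached 8.9, 30.3 and 0.763 FPKM, against 0.0233, 3.29 and 0.111 FPKM distally. The list sum was highest in injury 3, at 178 FPKM, with ISL2 at 0, and was 63.7, 35.8 and 19.9 FPKM in distal 3, 4 and 5. The onecut genes, expressed in motor neurons and other neurons, reached 1.49 FPKM (ONECUT3 in injury 5), and ONECUT2 was at 0.0744 FPKM in distal 1 and at 0.975 FPKM in distal 5, a library that also held ISL2. The phox2 genes, of visceral and hindbrain neurons, reached 0.968 FPKM (phox2ba in injury 5). Of all 17 IDs in this group, 5 were seen at the injury alone, 4 distally alone and none in both, and 6 of those seen rested on a single library. A gene seen in a single library cannot be in both groups. The shares at the injury alone and distally alone were 41.2% and 19.6% of all homeobox genes seen, and 18.2% and 8.15% of all genes.

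Interneuron genes were scattered over both groups. Of 30 IDs 16 were above 0, 7 at the injury alone, 2 distally alone and 7 in both. Over all homeobox genes seen, 41.2% were at the injury alone and 19.6% distally alone, and over all genes 18.2% and 8.15%. The highest interneuron genes were lhx1a, tlx2 and PAX2. The level of lhx1a, a LIM factor of inhibitory and cerebellar neurons among others, was 0.0756, 0.914, 2.73 and 11.7 FPKM in injury 1, 4, 5 and 6 and 8.39 and 1.11 FPKM in distal 1 and 5, so high values occurred on both sides. The tlx2 gene, whose family marks excitatory dorsal neurons, was at 18.5 FPKM in distal 4, 2.83 FPKM in injury 6 and 0.453 FPKM in distal 5. PAX2 (ENSDARG00000028148), of inhibitory interneurons, was above 0 in 7 libraries and reached 6.67 FPKM in injury 6 and 3.2 FPKM in distal 3. The engrailed gene EN1, of V1 interneurons, did not pass 0.0397 FPKM, and EVX1, of V0 interneurons, was seen in injury 6 alone, at 1.68 FPKM.

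Dorsal progenitor genes were seen in single or few libraries. Of 11 IDs 7 were above 0, 6 of them at the injury alone and 1 distally alone, and 4 of the 7 rested on a single library. Among all homeobox genes seen, 41.2% were above 0 at the injury alone and 19.6% distally alone, against 18.2% and 8.15% of all genes. Behind PAX7, msx1a was at 5.34 FPKM in injury 6 alone and msx2a at 0.742 and 0.68 FPKM in injury 1 and injury 4, and both gsx genes, of intermediate dorsal progenitors, were listed at 0 throughout. Genes best known from the forebrain, eye and placodes made up 32 IDs, of which 15 were at 0 everywhere, 8 were seen at the injury alone, 4 distally alone and 5 in both. The highest of them were prox3, in 6 libraries at up to 6.52 FPKM (distal 4), OTX1, at 2.54 FPKM in injury 5 and 6.7 FPKM in distal 4, and LHX8, at 9.08 FPKM in injury 4 alone. Of 24 mesodermal, endodermal and remaining IDs, 12 were at 0 everywhere and 5 were seen in both groups, and POU1F1, the pituitary class 1 POU factor, was above 0 in 7 libraries at up to 4.09 FPKM (distal 3).

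No gene, homeobox or other, differed between the segments past the adjusted test. Of the 24178 genes whose mean over the libraries reached 0.1 FPKM, 0 (0%) had an adjusted limma p under 0.05 (5 with voom on fragments, none of them a homeobox gene), and 68 homeobox genes were among those tested. At an unadjusted p under 0.05, 159 genes (0.658%) were higher and 490 (2.03%) lower at the injury. The homeobox genes gave 0 higher and 1 lower, ISL2. Their lowest adjusted p was 0.838 and that of all genes 0.525. Of the 68, 39 were higher and 29 lower at the injury, with a median difference of 0.22, against -0.04 over all genes tested. Within the set of 12 broadly seen genes the sign was mostly the other way, with 11 lower and 1 higher, and without injury 2 and injury 3, which held 11 of their 13 zeros, 9 were lower and 3 higher. Of all genes tested, 51.8% were lower at the injury, but the share among other broadly seen genes is not given here. None of the 68 had an exact permutation p under 0.05, and for 44 of them the number of zeros leaves no split of the libraries in the observed direction under that level. The 95% intervals of the named genes spanned up to several log2 units, so that sizeable differences were not excluded here.

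**Figure D4:**
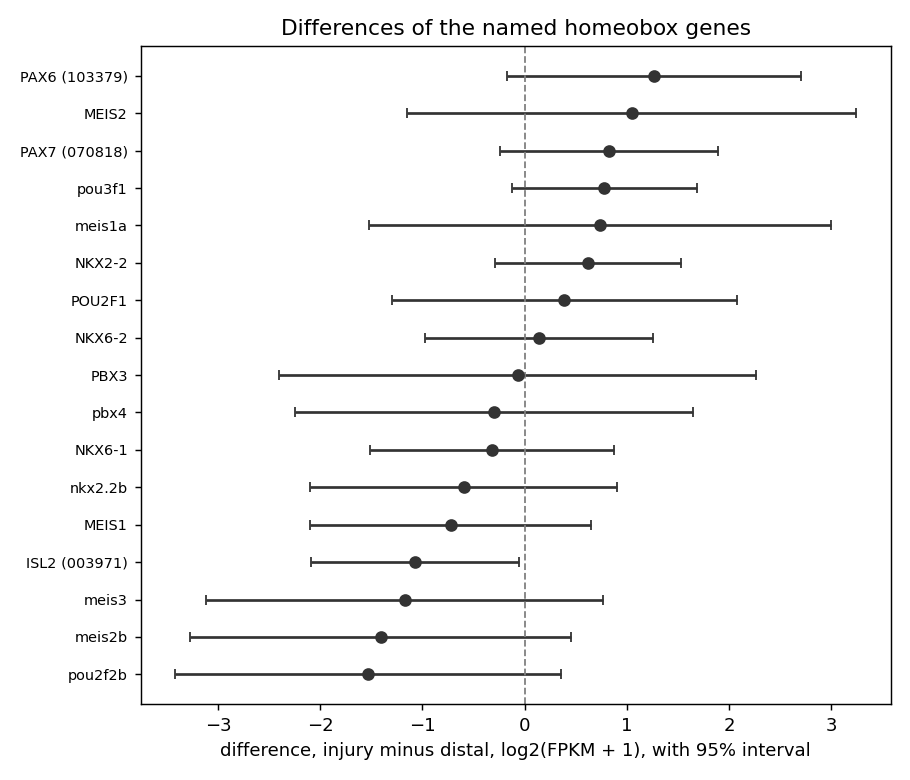
Differences, injury minus distal, of 17 named homeobox genes that were tested, in log2(FPKM + 1). Points are limma estimates from 6 injury and 5 distal libraries and bars their 95% intervals; the interval of ISL2, from -2.09 to -0.05, is the one that leaves out 0.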

How the data were processed

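ISNs were sorted from Tg(tph2:GFP) fish, and cDNA was amplified by the SMART-Seq v4 low-input chemistry. The 6 injury and 5 distal libraries were sequenced with paired-end reads. The deposited FPKM values were calculated by the authors from gene length and mapped fragments, with no stated scaling between libraries. The submitters' processing notes name HISAT2 2.0.5, HTSeq 0.9.1 and danRer11. All columns belong to the 11 libraries.

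Symbols for 29201 of 39714 IDs came from a reference of gene names. A further 3319 Ensembl IDs had none and could not be searched. The homeobox genes, role groups, marker lists and naming rule were chosen with earlier results of these data known. Named were the 10 genes with the highest mean, those with an unadjusted limma or exact p under 0.05, those seen in 3 or more libraries on one side and 0 on the other, isl2a as displayed by the study, nkx2.2, nkx2.9 and nkx6 genes, and at most the 3 highest of each role group. Other genes were named after their values were seen.

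Groups were compared with limma 3.58.1 in R 4.3.3 (eBayes with trend, two-sided) on log2(FPKM + 1), for genes whose mean reached 0.1 FPKM, with Benjamini-Hochberg adjustment over the 24178 tested, and by two-sided exact permutation over 462 splits. Where the labels do not say that samples are separate animals, p-values measure the spread between these samples. Fragments were recovered as whole numbers that reproduce each FPKM, and are quoted only for genes in at least 3 libraries, since with fewer the whole numbers are not checked by the values. The fit, the exact test and the recovery were tested on simulated data. For the fit, changes were simulated only in well expressed genes seen in every library, so not in genes with zeros. The scripts ran under Python 3.11.15 (pandas 2.3.3, numpy 2.4.6, matplotlib 3.10.9, scipy 1.17.1). Alternatives were pseudocounts of 0.1 and 0.01, other filters on low values, rescaling to a sum of 1000000 or by median ratio, quantile normalization, the replicate number as a block, a prior without trend, array weights, a covariate for how many genes a library held, voom on fragments, detection at 0.1 or 1 FPKM, and leaving out each library. Leaving out injury 2 and injury 3 together was chosen after seeing the data. One gene and its results are not reported here, although counts over all homeobox genes include it. No sequences or coordinates were used here.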

Additional observations from a re-analysis of the deposited data

Results flagged for a closer look

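Values within a group were examined for outlying libraries on the scale of log2(FPKM + 1), though they are printed here in FPKM. Among the named genes, 7 of 32 sets of values within a group held a library whose gap to the nearest other exceeded Dixon's 95% critical value. Chance alone does so in about 1 of 20 groups. MEIS1 was lowest in injury 2, at 24.8 FPKM, while the other injury libraries held 69.2 to 121 FPKM. In injury 3, meis3 and pbx4 were listed at 0 FPKM and the other injury libraries held at least 22.4 and 12.7 FPKM. In injury 6, nkx2.2b was at 9.03 FPKM, alone above 0 among injury libraries, and NKX2-2 was at 5.72 FPKM, where only injury 5 was also above 0. NKX2-2 at 0.0208 FPKM and the second ISL2 ID at 0.0771 FPKM, both in distal 5, were the only distal values above 0 of their genes. Where a single library is above 0, as for these and for nkx2.2b at the injury, the gap is the whole range by construction, and the rate of 1 in 20 does not apply.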

How the results depend on the processing

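No homeobox gene passed an adjusted p of 0.05 under any alternative, and of the values for single named genes under the alternatives 407 kept their direction and stayed over an adjusted p of 0.05, and 19 turned sign. The number of homeobox genes with an unadjusted p under 0.05 was 1 in the main test, 2 with a pseudocount of 0.01, 0 with a mean of at least 1 FPKM, 3 without a trend, 4 with array weights, with voom or with the 9 libraries without injury 2 and injury 3, and 5 with a covariate for how many genes a library held, and it was 0 to 2 when single libraries were left out. ISL2 lost its unadjusted call with quantile normalization and with the 9 libraries, where its limma p was 0.0725 and 0.0874, and with the mean of 1 FPKM it was not tested. The genes gained included pou3f1, pou3f2a, PAX6, pou2f2b, meis2b, POU2F2 and PROX1. Over all genes, 649 passed unadjusted in the main test, 589 with a pseudocount of 0.01 and 643 with a mean of at least 1 FPKM. The number was 887 without a trend, 820 with array weights, 1112 with the covariate, 1133 with voom and 1100 with the 9 libraries. With single libraries left out it was 541 to 739. The settings with 3 or more homeobox genes thus passed more of all genes too. The number of all genes past an adjusted p was 0, but 2 without a trend and 5 with voom. At 1 FPKM or more, 10 homeobox genes (20 at any level above 0) were seen distally only, 33 (42) at the injury only and 26 (40) in both groups. Genes above 0 in every library numbered 3 in all 11, 3 to 7 when 1 library was left out, with 7 without injury 3, and 10 with the 9 libraries.

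Signs turned for 4 genes. The difference of pbx4 (-0.30) was 0.064 with quantile normalization, 0.045 with array weights, 0.24 with the 9 libraries and -0.64 to 0.47 with single libraries left out. That of PBX3 (-0.07) was 0.32, 0.25, 1.44 and -0.84 to 0.54 in the same order. POU2F1 (0.39) was at -0.14 with the 9 libraries. NKX6-2 (0.14) was at -0.036 and -0.65 with pseudocounts of 0.1 and 0.01, -0.057 with quantile normalization, -0.64 with voom and -0.15 to 0.35 with single libraries left out. The causes were not tested. Same-numbered libraries of the groups correlated from -0.05 to 0.13 over 5 pairs, with 1 over 0.1, so the number was not taken to pair samples. With the number as a replicate block in limma, 1 homeobox gene, nkx2.2b, passed an unadjusted p of 0.05 in place of ISL2 (696 of all genes, against 649), and the difference of NKX6-2 was -0.15. Injury 6 has no distal library of its number, so it adds nothing to the differences in this fit. The difference of nkx2.2b was -1.15 with the block and also with injury 6 left out, the only injury library in which it was above 0.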
